A study of Mus musculus with 12 samples.

Results

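The genes described here are the CXCR3 chemokine system of the mouse: the ligand genes Cxcl9, Cxcl10 and Cxcl11 and the gene of their shared receptor, Cxcr3. They were chosen by symbol, and 4 of the 45777 genes in the count table carry these symbols. All 4 passed the filter on low counts that left 17885 genes for testing. RNA was measured in 12 subcutaneous flank tumours of 8-week-old male mice of the strain 129S2/SvPasCrl, grown from cells of the mouse lung cancer line 393P. The 4 groups of 3 libraries crossed the genotype of the injected cells with treatment. The first genotype was MAVS knockout (the sample titles also carry "Luc", whose meaning the labels do not give), and the second was MAVS reconstituted. The treatment was control or BAY-1217389, which blocks the mitotic kinase MPS1 (gene Ttk), at 5 mg/kg given 2 times daily for 2 days, with tumours taken the following day. MAVS is the mitochondrial adaptor through which the cytosolic RNA sensors RIG-I and MDA5 signal. The genotype was that of the injected cells, so host cells in a tumour piece carried their own Mavs gene. Each genotype was 1 injected cell population, and the genotype and any other difference between those populations cannot be told apart.

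CXCL9, CXCL10 and CXCL11 are secreted chemokines that bind CXCR3, a G protein-coupled receptor carried mainly by activated T cells and natural killer cells. Interferon gamma induces all of them, in macrophages, dendritic cells, stromal and tumour cells, and type I interferon and NF-kB also act on Cxcl10. In tumours these chemokines are known for drawing effector T cells into the tissue.

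The ligand genes lie side by side on the minus strand of chromosome 5 (GRCm38.p6, RefSeq positions). Cxcl9 (gene ID 17329) covers chr5:92321331-92328079, Cxcl10 (15945) covers chr5:92346638-92348889, and Cxcl11 (56066) covers chr5:92359544-92363296. The gap between Cxcl9 and Cxcl10 is 18558 bases, that between Cxcl10 and Cxcl11 is 10654 bases, and the cluster spans 41966 bases. Cxcr3 (12766) lies elsewhere, on the minus strand of chrX:101731535-101734147. Cxcl11 is listed as a transcribed pseudogene in the deposited table and in RefSeq, and as a polymorphic pseudogene in GENCODE M21. Both annotations describe the C57BL/6J reference genome, and which allele these 129S2/SvPasCrl tumours carried was not determined here, so its values are RNA levels and say nothing of a protein. Cxcl10 and Cxcl11 both lie within the span of Art3, a gene on the opposite strand. Library preparation was stranded per the labels' protocols, but strand use in the counting was not given in the sources used here.

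The 250 bases before the start of Cxcl9 and Cxcl10 are shown because the RNA levels of these genes moved together over the tumours, as described further on. The sequences are from RefSeq (GRCm38.p6), 5′ to 3′ along the gene's own strand. Capitals mark matches to 3 motifs searched on both strands: GAAA followed after any 2 bases by GAAA, the core of the interferon-stimulated response element (ISRE), TTCNNNGAA, the interferon gamma-activated site (GAS), and GGGA followed after any 4 bases by CC, an NF-kB site.
Cxcl9, chr5:92328080-92328329, minus strand: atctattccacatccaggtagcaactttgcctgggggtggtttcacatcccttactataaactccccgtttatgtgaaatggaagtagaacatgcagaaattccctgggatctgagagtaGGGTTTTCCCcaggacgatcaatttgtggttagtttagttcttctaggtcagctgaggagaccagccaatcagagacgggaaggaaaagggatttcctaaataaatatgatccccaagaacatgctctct
Cxcl10, chr5:92348890-92349139, minus strand: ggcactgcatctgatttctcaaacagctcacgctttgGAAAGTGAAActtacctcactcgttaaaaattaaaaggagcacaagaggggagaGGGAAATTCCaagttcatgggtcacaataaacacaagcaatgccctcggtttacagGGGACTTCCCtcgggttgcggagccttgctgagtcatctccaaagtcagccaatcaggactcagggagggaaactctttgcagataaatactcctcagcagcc
The Cxcl10 window held 1 ISRE match, from base -213 to -204 counted from the start, and NF-kB matches from -159 to -150 and from -103 to -94, the latter on both strands. The Cxcl9 window held 1 NF-kB match, from -130 to -121, on the strand opposite to the printed one. No motif overlapped another. Among the 32851 windows of this length in the table, 2.98% held an ISRE match, 7.02% a GAS match and 17.6% an NF-kB match. Neither window held a GAS match, and the window of Cxcr3 held none of the 3 motifs, which says only that these letters are not there.

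Library totals ran from 52983715 to 69108411 counts. Mavs was measured at 39.4 to 45.7 CPM (a gene's share of its library's counts after normalization factors, on a fixed total) in the knockout libraries and at 50.1 to 85.1 CPM in the reconstituted ones, without overlap. Its difference averaged over treatments was 0.58 ± 0.09 on the log2 scale (SE; edgeR adjusted p = 0.0105). The epithelial genes Epcam (128 to 193 CPM), Krt8 (2103 to 2974 CPM) and Krt18 (1626 to 3257 CPM) were present in all libraries. The lung lineage genes Nkx2-1 and Sftpc had 0 counts in all 12, where 3 counts would be 0.0422 to 0.0593 CPM. The labels call the samples replicates and do not name separate animals, so a p-value here covers only the spread among these samples.

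The ligand genes were among the most variable genes of these tumours, and the receptor gene was not. Cxcl9 ran from 24.0 to 602 CPM, Cxcl10 from 13.1 to 520 CPM and Cxcl11 from 4.65 to 264 CPM, which is a 25.04-fold, 39.6-fold and 56.8-fold range between the highest and the lowest library. The SD of log2 CPM over the 12 libraries was 1.30 for Cxcl9, 1.56 for Cxcl10 and 1.72 for Cxcl11, larger than that of 92.6%, 94.7% and 95.8% of the tested genes. Cxcr3 ran from 0.671 to 1.64 CPM, a 2.44-fold range, on 36 to 101 counts per library. Its SD of log2 CPM was 0.38, larger than that of 65.3% of the genes. Per kb of transcript, Cxcl10 had the highest median level over the 12 libraries (51.9 CPM per kb), followed by Cxcl9 (43.0), Cxcl11 (14.5) and Cxcr3 (0.665). In the reconstituted tumours given the inhibitor the levels were 275 ± 186 CPM per kb for Cxcl10, 147 ± 73.8 for Cxcl9, 98.2 ± 67.6 for Cxcl11 and 0.741 ± 0.180 for Cxcr3 (mean ± SD, n = 3). Within single libraries the per-kb ratio of Cxcl9 to Cxcl10 ran from 0.438 to 0.694 in that group and was below 1 in 9 of all 12 libraries, the other 3 being knockout libraries. The per-kb ratio of Cxcl9 to Cxcl11 ran from 1.25 to 5.03 over the 12 libraries and was below 1 in 0 of them. In CPM every ligand lay above the receptor in every library. The ratio to Cxcr3 was lowest in knockout control replicate 2, at 15.7 for Cxcl9, 8.56 for Cxcl10 and 3.03 for Cxcl11. In a bulk tumour library, fewer cells of a type and less RNA per cell cannot be told apart, and the low level of Cxcr3 carries that limit too.

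**Figure D1:**
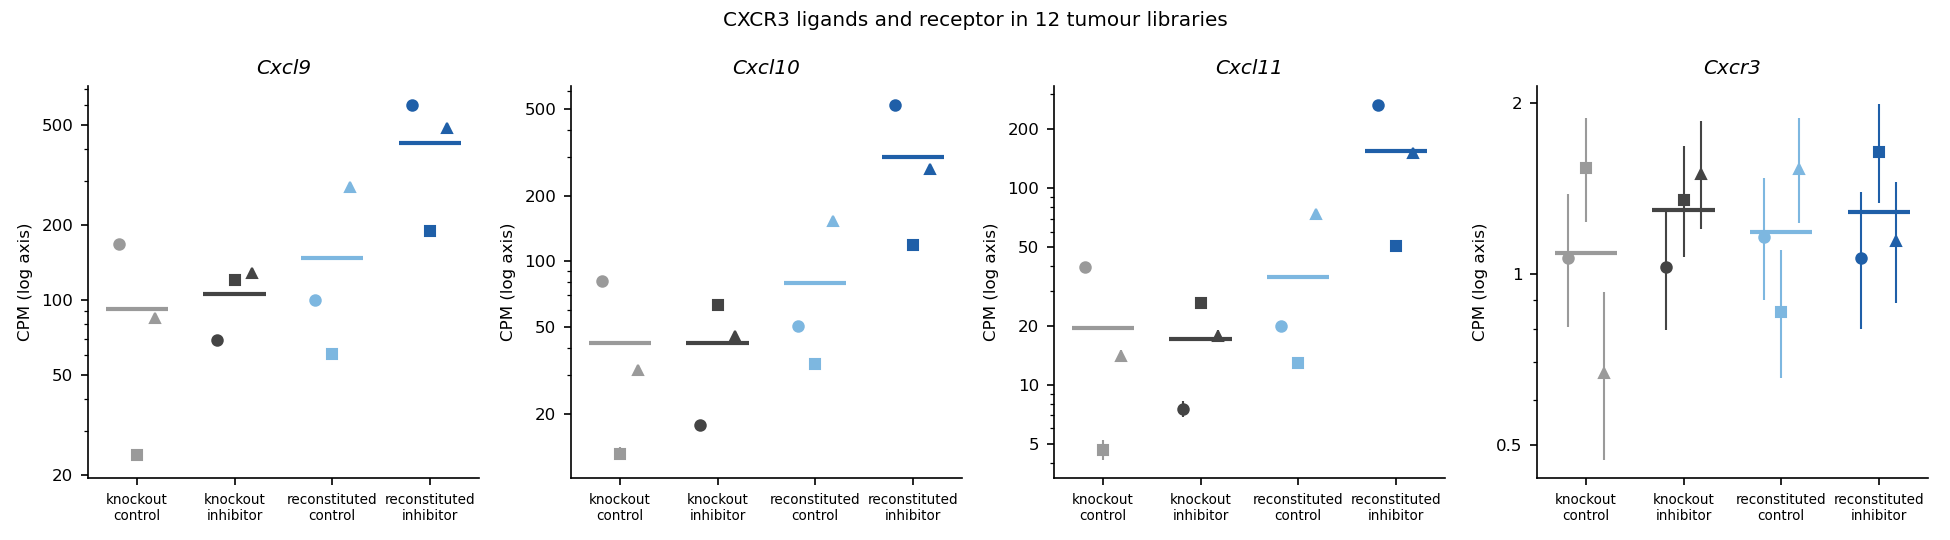
Level of each gene in each library, in CPM on a log axis, by group. Circles, squares and triangles are replicates 1, 2 and 3, the horizontal line is the group mean, and the vertical line is the 95% Poisson interval of the count (counting error only). For the ligands the 3 reconstituted inhibitor libraries lie above the 3 knockout inhibitor libraries, as for 10.9% of all tested genes. Cxcr3 overlaps in every group.

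Cxcl9, the ligand induced mainly by interferon gamma, was measured at 167, 24.0 and 84.8 CPM in replicates 1 to 3 of the knockout control tumours and at 69.2, 120 and 128 CPM in the knockout inhibitor tumours. In the reconstituted control tumours it was 99.8, 60.6 and 282 CPM, and in the reconstituted inhibitor tumours 602, 189 and 487 CPM. The 3 reconstituted inhibitor libraries stood above the 3 knockout inhibitor libraries, which held for 10.9% of all tested genes. Replicate 3 of the reconstituted controls lay among the reconstituted inhibitor libraries. Cxcl10, which both kinds of interferon induce, was 81.2, 13.1 and 31.8 CPM in the knockout controls and 17.7, 63.2 and 45.5 CPM in the knockout inhibitor tumours. It was 50.4, 34.0 and 153 CPM in the reconstituted controls and 520, 119 and 266 CPM in the reconstituted inhibitor tumours. The order of the libraries at the top was that of Cxcl9: replicates 1 and 3 of the reconstituted inhibitor group, then replicate 3 of the reconstituted controls, then replicate 2 of the inhibitor group. Cxcl11, the ligand with the highest affinity for CXCR3, was 39.6, 4.65 and 14.1 CPM in the knockout controls and 7.53, 26.0 and 17.8 CPM in the knockout inhibitor tumours. It was 19.96, 12.8 and 73.6 CPM in the reconstituted controls and 264, 50.6 and 151 CPM in the reconstituted inhibitor tumours. Its 4 highest libraries were the 4 of Cxcl9 and Cxcl10, in the same order. Cxcr3 was 1.07, 1.53 and 0.671 CPM in the knockout controls and 1.03, 1.35 and 1.502 CPM in the knockout inhibitor tumours. It was 1.16, 0.858 and 1.53 CPM in the reconstituted controls and 1.07, 1.64 and 1.14 CPM in the reconstituted inhibitor tumours. Its highest library was the reconstituted inhibitor replicate 2, the lowest of its group for all 3 ligands. The 4 groups of Cxcr3 overlapped throughout, with means of 1.09 ± 0.432, 1.29 ± 0.241, 1.18 ± 0.337 and 1.28 ± 0.311 CPM (SD, n = 3) in the order just given.

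The first comparison asks how ligand and receptor RNA differed with MAVS in tumours given the MPS1 inhibitor. The mean level of Cxcl9 was 426 ± 213 CPM in reconstituted and 106 ± 32.1 CPM in knockout tumours (SD, n = 3). That of Cxcl10 was 301 ± 203 against 42.1 ± 22.9 CPM, and that of Cxcl11 was 155 ± 107 against 17.1 ± 9.27 CPM. For each of the 3 ligands, the lowest reconstituted value exceeded the highest knockout value, which held for 10.9% of all tested genes. Cxcr3 overlapped. The fitted log2 difference was 2.01 ± 0.71 for Cxcl9 (SE; 95% interval 0.44 to 3.57; edgeR adjusted p = 0.168), a 4.02-fold ratio. It was 2.84 ± 0.81 for Cxcl10 (1.05 to 4.62; edgeR adjusted p = 0.118), a 7.15-fold ratio. For Cxcl11 it was 3.18 ± 0.91 (1.17 to 5.19; edgeR adjusted p = 0.118), a 9.08-fold ratio. For Cxcr3 it was -0.01 ± 0.33 (-0.74 to 0.72; edgeR adjusted p = 0.989). None of the 4 genes passed the threshold of an adjusted p below 0.05 over all genes with edgeR's quasi-likelihood test, under which 0.52% of tested genes were called higher and 0.649% were called in either direction. That share rested on single libraries: it was 0.0109%, 0.0273% and 0% without knockout inhibitor replicates 1, 2 and 3, and 0.0872%, 1.23% and 15.4% without reconstituted inhibitor replicates 1, 2 and 3. It was 0.316% without knockout control replicate 3, and 0.283% and 1.21% without reconstituted control replicates 1 and 3. Without reconstituted inhibitor replicate 3 the ligands were at 1.89 for Cxcl9, 2.91 for Cxcl10 and 3.19 for Cxcl11 (edgeR adjusted p = 0.122, 0.0524 and 0.0561). The unadjusted p of all 3 ligands was below 0.05, as was that of 3523 of the 17885 genes. With DESeq2, which called 4.13% of genes higher, Cxcl10 (adjusted p = 0.0200) and Cxcl11 (adjusted p = 0.0158) passed and Cxcl9 (adjusted p = 0.0695) did not. Over all alternatives the adjusted p ran from 0.0200 to 0.388 for Cxcl10, from 0.0158 to 0.389 for Cxcl11 and from 0.0695 to 0.458 for Cxcl9. The exact permutation test gave p = 0.1 for each ligand, the smallest that 3 against 3 libraries can give, and p = 1 for Cxcr3 (two-sided).

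**Figure D2:**
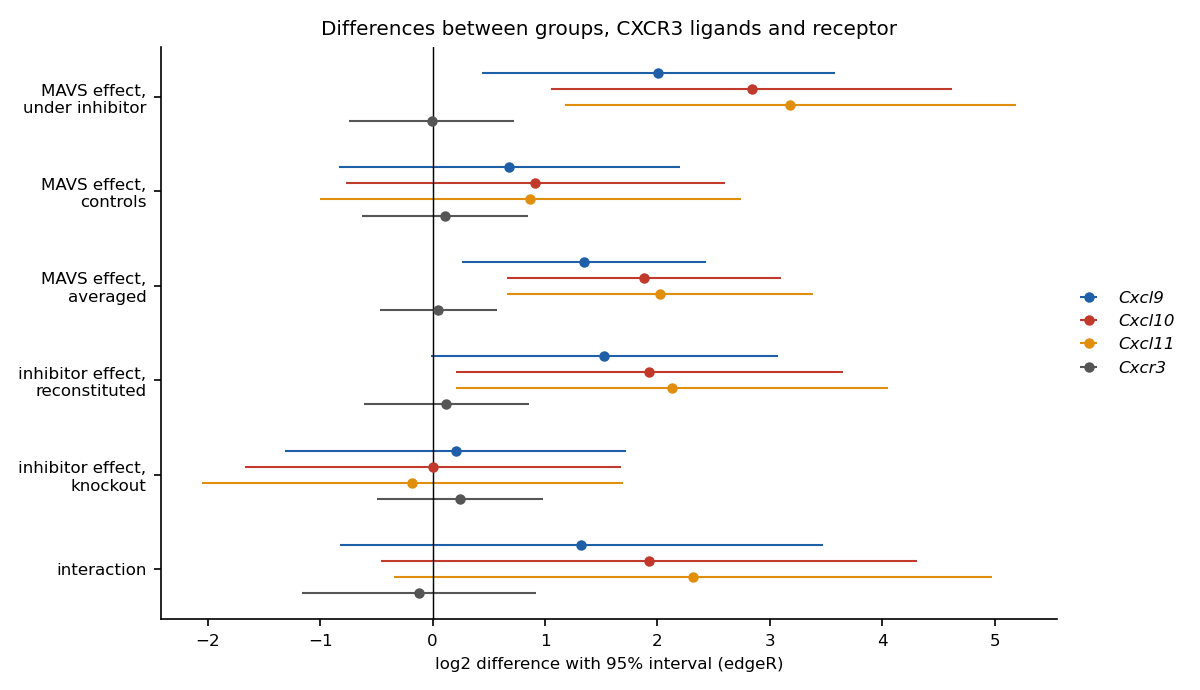
Fitted log2 difference of each gene in 6 comparisons, with its 95% interval from edgeR (points and horizontal lines). The ligand intervals lie above 0 for the MAVS effect under inhibition and averaged over treatments. For the inhibitor effect in reconstituted tumours those of Cxcl10 and Cxcl11 also do, and that of Cxcl9 includes 0. The Cxcr3 intervals include 0 in all 6 comparisons. No gene shown was called by edgeR in any comparison.

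In control tumours all 4 genes overlapped between genotypes, whereas 31.1% of tested genes did not. Cxcl9 was 148 ± 118 CPM in reconstituted and 91.9 ± 71.7 CPM in knockout tumours (SD, n = 3), Cxcl10 was 79.2 ± 64.6 against 42.0 ± 35.2 CPM, and Cxcl11 was 35.5 ± 33.2 against 19.4 ± 18.1 CPM. The log2 differences were 0.68 ± 0.69, 0.91 ± 0.77 and 0.87 ± 0.85 in that order (SE; edgeR adjusted p = 0.623, 0.544 and 0.611), and 0.11 ± 0.34 for Cxcr3 (edgeR adjusted p = 0.886). None of the 4 was called, where edgeR called 0.14% of genes and gave 3352 genes an unadjusted p below 0.05. The called share ran from 0% without knockout control replicate 2 to 0.437% without reconstituted inhibitor replicate 3. DESeq2 called 1.97% of genes higher here and no ligand. Replicate 3 of the reconstituted controls was the highest control library for every ligand. Without it the differences were -0.19 for Cxcl9, 0.01 for Cxcl10 and -0.24 for Cxcl11.

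Averaged over both treatments, the MAVS difference was 1.35 ± 0.50 for Cxcl9 (SE; edgeR adjusted p = 0.224), 1.88 ± 0.55 for Cxcl10 (edgeR adjusted p = 0.129) and 2.03 ± 0.62 for Cxcl11 (edgeR adjusted p = 0.141). The difference of Cxcr3 was 0.05 ± 0.24 (edgeR adjusted p = 0.950), with a 95% interval of -0.47 to 0.57. None was called with edgeR, where 1.09% of genes were called higher and 1.56% in either direction (0.628% without knockout inhibitor replicate 1 to 1.81% without reconstituted inhibitor replicate 2). With DESeq2 Cxcl10 (adjusted p = 0.0361) and Cxcl11 (adjusted p = 0.0388) passed, beside 3.36% of all genes. In the exact permutation test with genotypes exchanged within each treatment (400 arrangements, smallest possible p 0.005, two-sided), p was 0.06 for Cxcl9, 0.025 for Cxcl10, 0.045 for Cxcl11 and 0.76 for Cxcr3. These p-values are not adjusted for the 20 exact tests run on the 4 genes.

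The next comparison asks how ligand and receptor RNA differed with the inhibitor within a genotype. It shares the reconstituted inhibitor libraries with the comparison under inhibition described above, and the 2 are not independent. In reconstituted tumours the log2 difference between inhibitor and control was 1.53 ± 0.70 for Cxcl9 (SE; edgeR adjusted p = 0.157), 1.93 ± 0.78 for Cxcl10 (edgeR adjusted p = 0.119), 2.13 ± 0.87 for Cxcl11 (edgeR adjusted p = 0.121) and 0.12 ± 0.33 for Cxcr3 (edgeR adjusted p = 0.823). All 4 genes overlapped between the groups (29.5% of tested genes did not), since replicate 3 of the controls exceeded replicate 2 of the inhibitor group for every ligand. The exact permutation p was 0.2 for each ligand. EdgeR called 0 genes in this comparison (0% of all tested), with 5827 genes at an unadjusted p below 0.05, among them Cxcl10 and Cxcl11. This 0 rested on 1 library: without reconstituted inhibitor replicate 3, edgeR called 2894 genes higher and 2789 lower (31% of those tested). The 4 genes were still not called there, at 1.42 for Cxcl9, 2.01 for Cxcl10, 2.15 for Cxcl11 and 0.20 for Cxcr3 (edgeR adjusted p = 0.199, 0.108, 0.120 and 0.725). DESeq2 called 11.8% of genes higher and none of the 4.

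In knockout tumours the same difference was 0.20 ± 0.69 for Cxcl9, 0.00 ± 0.76 for Cxcl10, -0.18 ± 0.85 for Cxcl11 and 0.24 ± 0.34 for Cxcr3 (SE), each with an edgeR adjusted p of 1. EdgeR called 0 genes (0%), with 305 at an unadjusted p below 0.05, and DESeq2 called 0.0112% of genes higher. The groups overlapped for all 4 genes and did not for 8.73% of tested genes. The test of the difference between the inhibitor effects in the genotypes gave 1.32 ± 0.98 for Cxcl9, 1.92 ± 1.08 for Cxcl10, 2.31 ± 1.21 for Cxcl11 and -0.12 ± 0.47 for Cxcr3 (SE; edgeR adjusted p = 0.407, 0.283, 0.252 and 0.895). A different response to the inhibitor with and without MAVS was thus not shown for any of the 4 genes at this spread, and 0 genes were called by edgeR in this test (0%), with 4421 at an unadjusted p below 0.05 and 4.62% called higher by DESeq2. Without reconstituted inhibitor replicate 3, edgeR called 1963 genes higher and 2042 lower in this test (21.9%) and none of the 4, with adjusted p of 0.449 for Cxcl9, 0.251 for Cxcl10, 0.233 for Cxcl11 and 0.962 for Cxcr3.

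The ligand genes moved together from tumour to tumour, and over all 12 libraries no such relation was found with their receptor. Over the 12 libraries, log2 CPM of Cxcl10 and Cxcl11 had a Pearson r of 0.998 and a Spearman rho of 0.993. For Cxcl9 with Cxcl10 r was 0.968 and rho 0.958, and for Cxcl9 with Cxcl11 r was 0.976 and rho 0.972. The permutation p of each r was 1e-05, the smallest that the resamples can give (3.67e-05 adjusted over the 11 relations computed). Without the 2 libraries farthest from the median, r was 0.996, 0.955 and 0.970 in the order given. That permutation exchanged libraries across groups, so that differences between groups entered it. With group means removed r was 0.995, 0.953 and 0.972, so that libraries of the same group also shared their order. The exact permutation p within groups, adjusted over the 11 relations, was 0.00566 for each of these pairs. Each ligand with Cxcr3 gave r of 0.08 (Cxcl9), 0.13 (Cxcl10) and 0.10 (Cxcl11), with rho of 0.23, 0.21 and 0.20 (permutation p adjusted over the 11 relations 0.799 for each r). Without the 2 libraries farthest from the median of the ligand, r with Cxcr3 was 0.512, 0.346 and 0.302 in that order. These r were not tested, and the low r over all libraries thus rested in part on those left out. Cxcr3 counts are low, and their counting error is part of that spread.

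**Figure D3:**
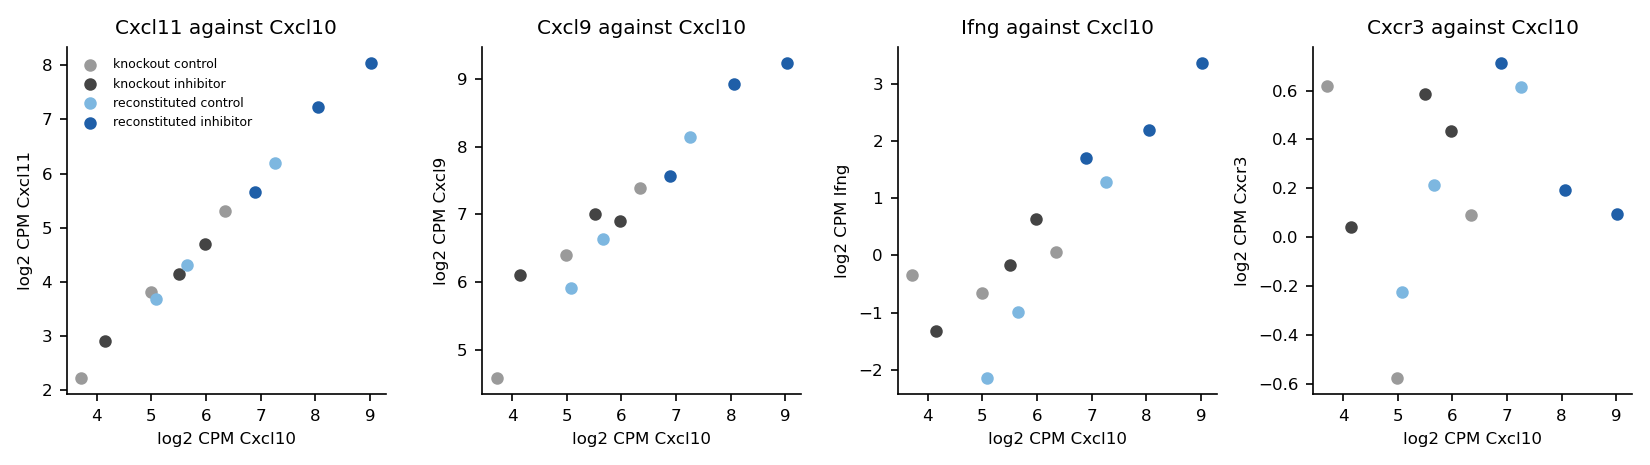
Log2 CPM of Cxcl11, Cxcl9, Ifng and Cxcr3 (vertical axes) against log2 CPM of Cxcl10 (horizontal axes), 1 point per library, coloured by group. Cxcl11 lies close to a line (r = 0.998), Ifng follows more loosely (r = 0.877), and Cxcr3 shows no such relation (r = 0.13).

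Ifng, the gene of interferon gamma, was measured at 10.4, 3.26 and 4.61 CPM in the reconstituted inhibitor tumours and at 0.400, 1.55 and 0.891 CPM in the knockout inhibitor tumours. In the controls it was 0.502, 0.225 and 2.44 CPM in reconstituted and 1.05, 0.793 and 0.634 CPM in knockout tumours. As for the ligands, replicate 3 of the reconstituted controls was the highest control and replicate 1 of the inhibitor group the highest library of all. Ifng had r of 0.830 with Cxcl9, 0.877 with Cxcl10 and 0.874 with Cxcl11 (rho 0.895, 0.860 and 0.881; permutation p of r adjusted over the 11 relations 0.00180, 6.16e-04 and 4.12e-04). Without the 2 libraries farthest from the median of the ligand, r was 0.922, 0.718 and 0.713, and with group means removed 0.705, 0.814 and 0.792. The exact permutation p of the latter within groups, adjusted over the 11 relations, was 0.0212, 0.00637 and 0.00679. Cxcr3 had r of 0.350 with Cd3e, a component of the T cell receptor complex, and 0.363 with Cd8a, the co-receptor of cytotoxic T cells (permutation p adjusted over the 11 relations 0.364 for each). Without the 2 libraries farthest from the median these were 0.07 and -0.09, and with group means removed they were 0.459 and 0.200 (exact permutation p within groups 0.185 and 0.620).

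Among 11986 other genes of at least moderate level, those most like Cxcl10 over the 12 libraries were Cxcl11 (r = 0.998), Igtp (0.992), Gbp2b (0.988), Gbp2 (0.988) and Irgm1 (0.987). Those most like Cxcl11 were Cxcl10, Igtp (0.991), Gbp2b (0.991), Gbp2 (0.991) and Gbp5 (0.990). Igtp and Irgm1 are immunity-related GTPases and the Gbp genes encode guanylate-binding proteins, both families known as interferon-induced. Cxcl9 was most like Mpeg1 (r = 0.984), which encodes perforin-2 of macrophages, followed by Iigp1 (0.983), Tgtp2 (0.979), Cxcl11 (0.976) and Gbp5 (0.976), with Cxcl10 at rank 9. Seen from Cxcl10, Cxcl9 stood at rank 43. Gbp2b, Tgtp2 and Iigp1 belong to multigene families with near-identical copies, and the counting of shared reads was not given in the sources used here. Among the 5 genes most like Cxcr3 of 11987 were Cyb5r4 (r = 0.824), Adora2b (0.791), BC028528 (0.790) and Acap1 (0.773). The ligands stood at ranks 3914 (Cxcl10), 4449 (Cxcl11) and 4770 (Cxcl9) in that order.

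The proportion of the ligands to each other also differed between tumours. The ratio of Cxcl9 to Cxcl10 CPM ran from 1.16 to 1.83 in the reconstituted inhibitor libraries and from 1.90 to 3.90 in the knockout inhibitor libraries, without overlap. In controls it ran from 1.79 to 1.98 and from 1.83 to 2.67. Averaged over treatments the log2 ratio was lower in reconstituted tumours by a log2 difference of -0.54 (exact permutation p = 0.02 over 400 arrangements, adjusted p = 0.06 over 6 ratios, two-sided). The ratio of Cxcl9 to Cxcl11 had a log2 difference of -0.67 (exact permutation p = 0.02, adjusted p = 0.06), and that of Cxcl11 to Cxcl10 one of 0.13 (exact permutation p = 0.27, adjusted p = 0.27). The ligand counts per receptor count, a ratio within each library, differed by 1.27 for Cxcl9 (adjusted exact permutation p = 0.144), 1.81 for Cxcl10 (0.0825) and 1.94 for Cxcl11 (0.0825). None of the 6 ratios passed 0.05 after adjustment. The ratios were chosen after the values were seen, the 3 between ligands first.

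The cluster's neighbours on chromosome 5 had smaller fitted differences under inhibition than the ligands. Within 200000 bases of the cluster, 10 other genes were tested, with log2 differences from -0.19 to 1.29 and no call (smallest edgeR adjusted p = 0.153). The highest was Ppef2, a phosphatase gene with 8 to 45 counts per library (1.29 ± 0.44, SE), and the other 9 ran from -0.19 to 0.50. Art3, whose span holds Cxcl10 and Cxcl11, was at 1.88 to 4.47 CPM, and its difference was 0.50 ± 0.26 (edgeR adjusted p = 0.292). Sdad1 and Nup54, a nucleoporin gene, on either side of the cluster, were at -0.04 and -0.07.

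**Figure D4:**
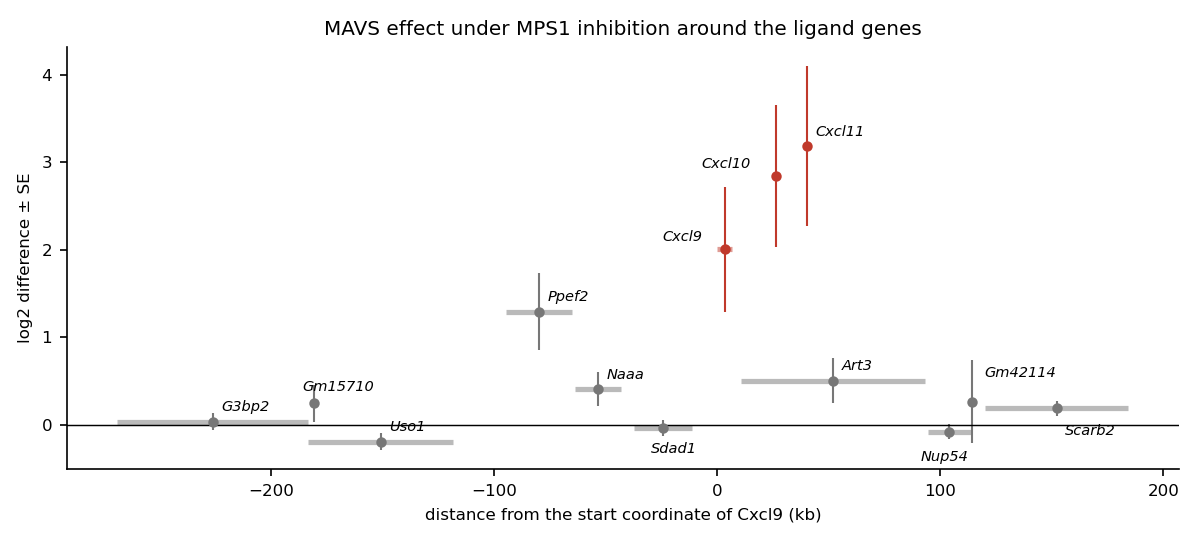
Fitted log2 difference between reconstituted and knockout tumours under inhibition (points, vertical lines are the SE) for the tested genes around the ligand cluster, against distance in kb from the start coordinate of Cxcl9. Grey horizontal bars are gene spans. The ligand genes (red) lie at 2.01 to 3.18, and the other 10 genes at -0.19 to 1.29.

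Upstream of the ligands, the interferon gamma pathway list held 13 tested genes. Over all tested genes under inhibition, edgeR called 0.52% higher, DESeq2 called 4.13% higher and 19.7% had an unadjusted p below 0.05, which is the background for the list counts in this and the next paragraphs. Under inhibition 2 of them were higher in reconstituted tumours, namely Stat2 (1.65 ± 0.28, SE; edgeR adjusted p = 0.0316) and Irf9 (1.14 ± 0.20; edgeR adjusted p = 0.0321), partners in the factor that type I interferon activates. The median of the list was 0.87, beside 0.01 over all genes. Ifng (2.68 ± 0.79; edgeR adjusted p = 0.120) and Irf1, a transcription factor acting on all 3 ligands (1.61 ± 0.47; 0.119), did not pass. Of 19 interferon gamma response genes, 0 were called by edgeR, although all 19 had a positive difference, with a median of 2.01, 17 had an unadjusted p below 0.05 and DESeq2 called 13. Of 23 type I interferon response genes, 21 had an unadjusted p below 0.05 for the MAVS difference in control tumours, with a median of 1.81. Over all tested genes 18.7% had such a p in controls. EdgeR called 4 of the 23 higher in reconstituted controls, beside 0.117% of all tested genes. Under inhibition all 23 had an unadjusted p below 0.05, and the median of the list was 2.71. There 20 of the 23 were called higher in reconstituted than in knockout tumours. Among them were Oas2, which makes the activator of RNase L (2.89 ± 0.32; edgeR adjusted p = 0.00928), Mx2 (2.73 ± 0.33; 0.0133), Oas1a (3.22 ± 0.39; 0.0133) and Ifit3b (4.44 ± 0.58; 0.0147). Of 12 NF-kB target genes 0 were called by edgeR (median 0.15), with 3 at an unadjusted p below 0.05, Icam1 (1.00 ± 0.25) and Tnf (1.01 ± 0.33) having the smallest p. These counts rested on few libraries. The 20 type I genes became 0, 1 and 0 without knockout inhibitor replicates 1, 2 and 3, 6 without reconstituted inhibitor replicate 1, and 13 without reconstituted control replicate 1. The 2 pathway genes became 0 without any of the 3 knockout inhibitor replicates, knockout control replicate 3 or reconstituted inhibitor replicate 1, and 1 without reconstituted control replicate 1. They became 4 and 6 without reconstituted inhibitor replicates 2 and 3, and 3 without reconstituted control replicate 3.

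Among other chemokine genes 1 was called, where 0.52% of all tested genes were called higher and 19.7% had an unadjusted p below 0.05. Of 18 tested CC and related chemokines, 1 was called higher in reconstituted tumours under inhibition, namely Ccl5, a chemokine of T cells and natural killer cells. It was at 27.4, 15.0 and 13.6 CPM in reconstituted and 1.55, 2.70 and 3.51 CPM in knockout tumours (2.85 ± 0.48, SE; edgeR adjusted p = 0.0316). Its difference was close in size to that of Cxcl10, with a smaller SE. The median of the 18 was 0.66, and Ccl4 (1.73 ± 0.41), Ccl7 (1.46 ± 0.41) and Ccl2 (1.13 ± 0.32) did not pass. Of 11 other tested CXC chemokines, 0 were called by edgeR, with 1 at an unadjusted p below 0.05 and a median of -0.41. That gene was Cxcl17, a mucosal chemokine (1.99 ± 0.64; edgeR adjusted p = 0.143), at a mean of 1.03 ± 0.861 CPM in reconstituted and 0.257 ± 0.188 CPM in knockout tumours (SD, n = 3). Cxcl13, a B cell chemokine, was at -2.34 ± 1.23, on 0.0565 and 0.299 CPM. Cxcl16, the ligand of CXCR6, was at 0.31 ± 0.17 and Cxcl1, a neutrophil chemokine, at -0.38 ± 0.23. Of 15 other chemokine receptors 0 were called by edgeR (median 0.25), with 2 at an unadjusted p below 0.05, Ccrl2 (1.23 ± 0.35) and Cxcr6 (1.01 ± 0.42). The call of Ccl5 was lost without any of the knockout inhibitor replicates, without reconstituted inhibitor replicate 1 and without reconstituted control replicate 1, and 4 genes were called without reconstituted inhibitor replicate 3.

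On the receptor's side, genes that act on or accompany CXCR3 were looked at under inhibition. Il2rb, the interleukin-2 receptor beta chain, was at 1.58 ± 0.37 (SE; edgeR adjusted p = 0.0723). Tbx21, the transcription factor that activates Cxcr3, was at 1.44 ± 0.45 (edgeR adjusted p = 0.132). Ackr3, an atypical receptor that takes up CXCL11, was at 0.60 ± 0.18 (edgeR adjusted p = 0.128). Dpp4, the protease that trims the ligands, was at -0.63 ± 0.38 (edgeR adjusted p = 0.356). None of these 4 genes passed the threshold.

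Markers of cells that carry CXCR3 stood as follows beside its level. Of 14 natural killer and cytotoxic genes, 5 were called higher in reconstituted tumours under inhibition (median 1.76; 0.52% of all tested genes were called higher). Among them were Gzmb (2.39 ± 0.39, SE; edgeR adjusted p = 0.0284), Prf1 (2.72 ± 0.46; 0.0316) and Cst7 (1.45 ± 0.21; 0.0210). Ccl5 belongs to this list too. The summed level of the list ran from 130 to 156 CPM in reconstituted and from 23.2 to 40.6 CPM in knockout inhibitor tumours, and in controls from 69.4 to 104 and from 19.0 to 48.6 CPM. The 5 calls became 0 without any of the knockout inhibitor replicates, 1 without reconstituted inhibitor replicate 1, 3 without knockout control replicate 3 and 2 without reconstituted control replicate 1. Of 15 T cell genes 0 were called by edgeR, with 6 at an unadjusted p below 0.05 (19.7% of all tested genes were) and a median of 0.80. Cd3e (1.08 ± 0.31; edgeR adjusted p = 0.119) and Cd8a (1.06 ± 0.69; 0.387) did not pass. The summed T cell level overlapped, at 143 to 290 CPM against 198 to 255 CPM under inhibition. A sum follows its most abundant genes, and Cd3e was at only 3.26 to 4.29 CPM against 1.35 to 2.29 CPM. The mean log2 CPM of the list, which weighs its genes equally, ran from 1.74 to 2.34 against 1.19 to 1.75. Of the 15 differences 13 were positive, as were 51.1% of all tested genes. Thus Cxcr3 was at -0.01 in libraries where cytotoxic genes were called higher; whether Cxcr3 differs from them was not tested.

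Markers of the cells that make the ligands, and of other tissue, also differed between single libraries. The summed level of 12 macrophage and monocyte genes was 2562 to 3722 CPM in reconstituted and 2046 to 2549 CPM in knockout inhibitor tumours, with 0 genes called by edgeR, 6 at an unadjusted p below 0.05 and a median of 0.26. Replicate 1 of the reconstituted inhibitor group, the highest library for every ligand, had the highest macrophage sum and a skeletal muscle sum of 2293 CPM, against 1.41 to 581 CPM in all other libraries. This library also had the highest epithelial sum, 10110 CPM against 6380 to 8159 CPM in all other libraries. Its dendritic cell sum was the highest too, at 375 CPM against 276 to 345 CPM. Without this library the MAVS differences under inhibition were 1.67 for Cxcl9, 2.19 for Cxcl10 and 2.56 for Cxcl11. Fibroblast sums were 2930 to 8827 CPM in reconstituted and 7651 to 14797 CPM in knockout inhibitor tumours, and endothelial sums were 157 to 203 and 186 to 222 CPM. Summed markers of B and plasma cells stayed between 0.197 and 2.31 CPM in all libraries. The part of cell composition in the ligand differences was not tested.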

How the data were processed

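Bulk RNA-seq of 12 tumours was read from 1 deposited table of whole-number counts per gene, made by the authors and not normalized as far as the values show. The submitters' processing notes list Trimmomatic, HISAT2, StringTie and GRCm38 (mm10), without versions or roles. Strand use in counting and the treatment of shared reads were not given in the sources used here. Groups came from the labels. All 12 libraries entered 1 edgeR 4.0.16 fit (R 4.3.3) with a mean per group. The filterByExpr function left 17885 genes, and TMM factors (0.920 to 1.03) were applied. The quasi-likelihood F-test was used with Benjamini-Hochberg adjustment over all genes, calling at an adjusted p below 0.05. CPM for exact tests and relations were log2-transformed with a prior count of 0.5. Intervals of single counts are exact Poisson intervals at 95% and cover counting error only. Libraries of the same group differed beyond sampling noise in every pair (smallest chi-square per gene 32.5).

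Alternatives were DESeq2 1.42.0, limma-voom (limma 3.58.1), RLE or no factors, other filters, only the 6 libraries compared, a replicate block, and leaving out each library. The scripts were tested on simulated data. Positions came from RefSeq GRCm38.p6, and transcript lengths from GENCODE M21 transcripts matched to RefSeq ones. Promoter windows were matched by symbol for 3 of the 4 genes. Named genes were the 4 genes, Mavs and Ttk, 10 genes of the pathway whatever their values, up to 4 genes of the smallest p per list, and the 5 genes most like each of the 4. A few genes that this rule names are not reported here. The genes and lists were chosen with earlier results of these data known. The ratios, the neighbours on chromosome 5 and the lineage genes were added after values were seen. Of the 6 ratios, the 3 between ligands were tested first and the 3 to Cxcr3 were added after those results, with adjustment over all 6. Ttk, the target of the inhibitor, was at 15.2 to 22.5 CPM.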

Additional observations from a re-analysis of the deposited data

How the results depend on the processing

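Of the 24 differences of the 4 genes, all kept their direction and their side of the threshold with RLE factors, no factors, no filter and a filter of 1 CPM in 3 libraries. The same held for the 16 that could be fitted on the 6 libraries compared. DESeq2 called 4 more: under inhibition Cxcl10 (2.84) and Cxcl11 (3.18), and averaged over treatments Cxcl10 (1.87) and Cxcl11 (2.02). It called 738 genes higher and 505 lower under inhibition, against 93 and 23 with edgeR, and 601 and 419 averaged over treatments, against 195 and 84. Apart from fits without a library, the sign turned in 3 of these fits. With limma-voom Cxcl11 in knockout tumours given the inhibitor was at 0.16 and Cxcr3 under inhibition at 0.0006. With the replicate number as a block, Cxcl11 in knockout tumours was at 0.40, no call of the 4 genes changed, and the genes called under inhibition were 36 higher and 7 lower. In that block fit the type I interferon calls fell to 12, the cytotoxic calls to 1, and those of the interferon gamma pathway and of the CC chemokines to 0. With only the 6 libraries compared, the pathway had 1 call. DESeq2 called 8 pathway, 8 cytotoxic and 5 CC chemokine genes. Deviations from the group means correlated at -0.09 to 0.26 over 18 same-numbered pairs and at -0.31 to 0.30 over 36 other pairs. Such ranges overlap and cannot decide whether equal replicate numbers pair the samples, which was not tested. With group means removed, r with Cxcr3 was -0.11 for Cxcl9 and -0.0371 for Cxcl11. The cause of these shifts was not tested.

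Leaving out each of the 12 libraries in turn, no gene of the 4 was called. The MAVS differences under inhibition were 1.67 to 2.36 for Cxcl9, 2.19 to 3.25 for Cxcl10, 2.56 to 3.62 for Cxcl11 and -0.23 to 0.11 for Cxcr3. In controls they were -0.19 to 1.44 for Cxcl9, 0.01 to 1.82 for Cxcl10, -0.24 to 1.92 for Cxcl11 and -0.14 to 0.44 for Cxcr3. Averaged over treatments they were 0.90 to 1.72 for Cxcl9, 1.42 to 2.33 for Cxcl10, 1.47 to 2.55 for Cxcl11 and -0.077 to 0.22 for Cxcr3. The inhibitor differences were in reconstituted tumours 1.16 to 2.40 for Cxcl9, 1.28 to 2.83 for Cxcl10, 1.51 to 3.24 for Cxcl11 and -0.096 to 0.35 for Cxcr3. In knockout tumours they were -0.25 to 0.96 for Cxcl9, -0.42 to 0.91 for Cxcl10, -0.65 to 0.87 for Cxcl11 and -0.005 to 0.57 for Cxcr3. The interaction ran from 0.57 to 2.19 for Cxcl9, 1.02 to 2.82 for Cxcl10, 1.26 to 3.41 for Cxcl11 and -0.45 to 0.13 for Cxcr3. Depth limits Cxcr3, whose 36 to 101 counts leave a 95% Poisson interval of 0.470 to 0.929 CPM at the lowest library.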
